A study of Homo sapiens and Mus musculus with 16 samples.

Results

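DNA damage and repair genes were taken as 43 named genes of the damage response and of the main repair routes, found by gene symbol in the deposited tables. All 43 had a row among the 58713 of the MDA-MB-231 table. The CT26 table, with 53796 rows, held 41 of them under the same symbol in mouse case. It carries the other two as Mre11a and Trp53bp1, and their values are given apart and enter no count. Fanca was listed at 0 in every CT26 library with the status HIDATA, under which no gene of that line had a value above 0. The test therefore covered 43 genes of MDA-MB-231 and 40 of CT26. All of those had at least 1 FPKM (fragments scaled to transcript length and to all mapped fragments) in at least 4 of the 8 libraries of their line, the filter used for every gene.

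The study compared cells in which PD-L1, which binds the inhibitory receptor PD-1 on T cells, had been knocked out (KO) by CRISPR delivered with a lentivirus, with cells of wild type genotype (WT). MDA-MB-231 cells, from a triple-negative breast cancer of a human patient and grown in DMEM, gave 4 KO and 4 WT libraries of total RNA. CT26 cells, from a mouse colon carcinoma and grown in RPMI medium, gave 4 of each as well. The labels do not state the guide, nor whether the WT cells had received a control vector. They leave out whether the KO cells were a clone or a pool, and whether each library had its own culture. The p-values therefore measure only the spread between libraries, which may be technical.

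Breaks and stalled forks in DNA activate the kinases ATM and ATR, which pass the signal to CHEK2 and CHEK1 and halt the cell cycle. Double-strand breaks are then either joined end to end by the Ku and DNA-PK machinery or resected and copied from the sister chromatid by homologous recombination, while crosslinks, mismatches and bulky adducts each have a route of their own. PD-L1 is reported to act in this response, and tumour cells rely on it during rapid division.

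The transcript of the targeted gene was looked at in every library. CD274 had 9.93, 11.6, 8.19 and 12.5 FPKM in the KO libraries, against 12.3, 11.2, 12.5 and 12.8 FPKM in the WT libraries. The groups overlapped (log2 fold change -0.20 ± 0.12, limma adjusted p = 0.166; two-sided exact permutation test over the 70 assignments of the 8 libraries, p = 0.229). In CT26, Cd274 had 0.548, 0.445, 0.569 and 0.543 FPKM in the KO libraries, against 1.5, 1.49, 1.43 and 1.23 FPKM in the WT libraries. Those groups did not overlap (log2 fold change -0.66 ± 0.077, limma adjusted p = 0.000142; exact p = 0.0286, the smallest that 70 assignments allow). Cd274 reached the 1 FPKM of the filter in the WT libraries only, so its being tested depended on the group where it was high. With upper-quartile scaling of the libraries CD274 passed, at a log2 fold change of -0.40 (limma adjusted p = 0.0157). Since a frameshift can leave the transcript level as it was, the value in MDA-MB-231 is no check of that label. The KO libraries of MDA-MB-231 were the shallower ones, at 0.509 to 0.779 of the depth of WT replicate 1, against 0.941 to 1.21 for the WT libraries, as estimated from the spacing of low FPKM values. In CT26 the same estimate was 0.926 to 2.49 for KO and 0.799 to 1.14 for WT. Of 9 leukocyte markers, 3 were listed at 0 in every library of MDA-MB-231 and 5 in CT26, CD3E and MS4A1 among them in both lines. The summed level of the 9 was lower with the knockout in both lines, at 125 to 140.1 FPKM in KO, against 152 to 158 FPKM in WT in MDA-MB-231 and at 2.70 to 4.39 FPKM in KO, against 4.65 to 5.96 FPKM in WT in CT26. CD68 fell in both lines and CSF1R in MDA-MB-231 (limma adjusted p = 0.00225, 0.0161 and 3.73e-05), and the part of this list in the results was not tested. The summed level of 7 neural and melanocyte markers moved with the knockout in MDA-MB-231, at 31.7 to 36.8 FPKM in KO against 6.54 to 7.77 FPKM in WT. Most of that shift was the single gene MITF, whose values are given at the end. Of the 4 markers of this list that were tested, 2 were higher and 1 lower, beside 42.6% and 25.7% of all genes. The part of this list in the results was likewise not tested. In CT26 the epithelial marker Epcam was listed at 0 in all libraries and Krt8 reached no more than 0.295 FPKM, so these markers of a colon carcinoma were at or near 0. They belong to a list of 15 genes that check the identity of the lines, of which 8 passed the expression filter in CT26. Of those 8 genes, 6 were called higher and 1 lower in KO, beside 22.3% and 33.5% of all genes. In bulk RNA, fewer cells of a type and less RNA per cell cannot be told apart.

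In MDA-MB-231, more than 4 times as many repair genes rose as fell in knockout cells. Of the 43 genes, 23 rose, 5 fell (XRCC2, MDC1, RNF8, XPA and DDB2) and 15 did not pass the threshold, an adjusted p under 0.05 in limma on log2(FPKM + 1). The adjustment was that of Benjamini and Hochberg over the 14450 genes tested. The same test called 68.2% of all genes tested, 42.6% higher and 25.7% lower in KO, so most of the genes tested differed between these groups. The median log2 fold change was 0.43 over the 43 genes and 0.18 over all genes. With upper-quartile scaling of the libraries the median over all genes was -0.0092, and 20 of the 43 were higher and 7 lower, beside 32.8% higher and 33.6% lower of all genes. Quantile normalization gave 21 and 7, beside 37.3% and 30.1%. On the log2(FPKM + 1) scale 6 genes rose at least 2-fold, namely RAD52, ERCC2, XRCC5, ERCC1, FANCA and XPC, and none fell as much, where 11.6% of all genes rose and 9.95% fell by that amount. That count was 4 with upper-quartile scaling or quantile normalization and 3 with neighbour centring, which is described further on. By the ratio of mean FPKM, LIG4 was 2.07-fold higher in KO too, against 2.04-fold for FANCA. In 22 genes every KO library lay above every WT library and in 5 below, 27 in all, beside 39.1%, 23.6% and 62.7% of all genes. All 28 calls held when any 1 of the 8 libraries was left out. Fold changes are given on the log2(FPKM + 1) scale ± SE, which understates the change of low genes, and group means ± SD with n = 4 libraries each.

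**Figure D1:**
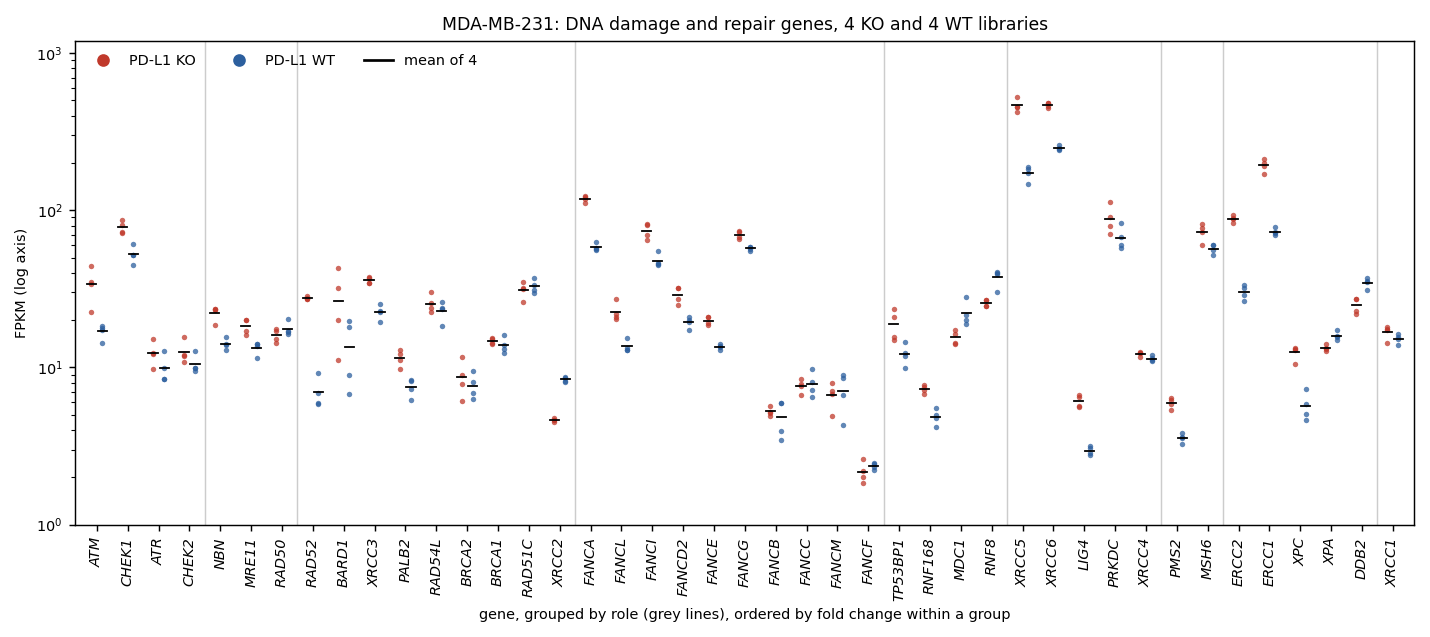
FPKM on a log axis of the 43 repair genes in the 4 KO (red, left) and 4 WT (blue, right) libraries of MDA-MB-231, with black bars at the group means and grey lines between role groups. RAD52, ERCC1, ERCC2, XRCC5 and XRCC6 stand clearly higher in KO, XRCC2 and RNF8 stand lower, and the points of BARD1 spread widely in both groups.

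RAD52 had the steepest rise of the set. The protein anneals single strands of DNA. RAD52 (ENSG00000002016, chr12:912077-990053, minus strand, hg38) had 27.2, 28.5, 27.8 and 27.4 FPKM in the KO libraries, against 5.98, 5.88, 9.23 and 6.82 FPKM in the WT libraries. The KO values hardly varied and lay far above every WT value (log2 fold change 1.87 ± 0.12, limma adjusted p = 1.78e-06). ERCC2 (ENSG00000104884, chr19:45349837-45370918, minus strand), the XPD helicase that opens DNA around a lesion, had 89.2, 88.4, 82.7 and 93.9 FPKM in the KO libraries, against 29.1, 26.6, 31.9 and 33.7 FPKM in the WT libraries. Again the groups were well apart (log2 fold change 1.52 ± 0.078, limma adjusted p = 3.68e-07). The deepest fall was that of XRCC2 (ENSG00000196584, chr7:152644779-152676165, minus strand), which is needed for homologous recombination. It had 4.61, 4.51, 4.6 and 4.75 FPKM in the KO libraries, against 8.15, 8.54, 8.12 and 8.71 FPKM in the WT libraries, with little spread in either group (log2 fold change -0.74 ± 0.069, limma adjusted p = 1.55e-05).

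The 250 bases before the RefSeq start of these 3 genes (GRCh38.p14, each on the minus strand and printed 5′ to 3′) are shown because they belong to the genes with the 2 largest rises and the largest fall. They lie at chr12:949695-949944, chr19:45370574-45370823 and chr7:152676142-152676391. The windows of RAD52 and ERCC2 thus lie inside the GENCODE loci given above, that of RAD52 far from the end, and that of XRCC2 in part. Only 1 RefSeq start per gene was used, and other starts were not searched. Capitals mark the CCAAT box (CCAAT, or ATTGG from the other strand) and the motif of the factor NRF1 (GCGC, then any base, T and GCGC, on either strand), and no 2 matches overlap here.
RAD52: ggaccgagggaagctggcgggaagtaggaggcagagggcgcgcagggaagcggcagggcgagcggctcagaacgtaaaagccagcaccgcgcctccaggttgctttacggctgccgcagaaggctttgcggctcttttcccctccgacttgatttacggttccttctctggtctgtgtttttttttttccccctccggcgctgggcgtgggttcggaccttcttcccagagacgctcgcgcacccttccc
ERCC2: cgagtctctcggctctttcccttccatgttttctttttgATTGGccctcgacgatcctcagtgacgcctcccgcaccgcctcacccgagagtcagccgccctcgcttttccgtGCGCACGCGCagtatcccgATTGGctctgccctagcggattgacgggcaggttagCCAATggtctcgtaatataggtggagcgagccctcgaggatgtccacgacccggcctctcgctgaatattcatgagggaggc
XRCC2: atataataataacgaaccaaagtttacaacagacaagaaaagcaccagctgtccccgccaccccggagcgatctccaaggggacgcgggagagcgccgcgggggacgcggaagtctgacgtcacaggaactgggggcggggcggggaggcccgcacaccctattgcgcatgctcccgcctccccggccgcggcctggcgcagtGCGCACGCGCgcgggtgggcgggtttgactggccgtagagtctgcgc
RAD52 had neither motif in this window, ERCC2 had 3 CCAAT boxes and 1 NRF1 match, and XRCC2 had 1 NRF1 match. RefSeq starts were found for 39 of the 43 genes, all but FANCI, NBN, PRKDC and XRCC5. The NRF1 motif stood in 7 of the 39 (17.9%), against 5.07% of all 35116 promoters of the same length, and a CCAAT box in 19 (48.7%), against 32.0%. A GC box (GGGCGG on either strand) stood in 27 (69.2%), against 42.6%. The median count of CG in the window was 21, against 11 over all promoters. The NRF1 motif itself contains CG, and the part of CG content in these shares was not tested. An E2F motif (TTTCGCGC, TTTGGCGC or TTTCCCGC on either strand) stood in 2, those of XPC and FANCC, against 2.32% of all promoters. The 7 promoters with an NRF1 match belonged to genes of every outcome: ATM, ERCC2, FANCA and PALB2 rose, XPA and XRCC2 fell, and XRCC1 did not pass. CCAAT boxes likewise occurred in 11 of 20 genes that rose, 3 of 5 that fell and 5 of 14 that did not pass.

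Of the 4 damage kinases, ATM and CHEK1 rose, beside 42.6% of all genes. ATM, the first responder to double-strand breaks, had 34.8, 22.7, 44.1 and 33.9 FPKM in the KO libraries, against 17.4, 18.5, 14.4 and 17.7 FPKM in the WT libraries. The KO libraries ranged widely but all lay above the WT range (log2 fold change 0.92 ± 0.18, limma adjusted p = 0.00159). CHEK1, the effector kinase of ATR at stalled forks, had 71.7, 86.9, 72.9 and 80.2 FPKM in the KO libraries, against 44.9, 51.9, 51.6 and 61.4 FPKM in the WT libraries. Here too no KO library came down to the WT range (log2 fold change 0.57 ± 0.10, limma adjusted p = 0.000877). ATR itself, with 12.3 ± 2.2 FPKM in KO and 9.86 ± 2.05 FPKM in WT, did not pass (log2 fold change 0.30 ± 0.16, limma adjusted p = 0.125). Without WT replicate 3 it did, at a log2 fold change of 0.42 (limma adjusted p = 0.0320). CHEK2, the effector of ATM, averaged 12.5 ± 2.09 FPKM in KO and 10.5 ± 1.51 FPKM in WT and did not pass either, at a log2 fold change of 0.23 ± 0.13 (limma adjusted p = 0.145).

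The MRN complex, which finds broken ends and starts their resection, changed unevenly. NBN, its regulatory subunit, had 23.3, 23.7, 23.7 and 18.6 FPKM in the KO libraries, against 12.8, 13.9, 15.5 and 14.0 FPKM in the WT libraries. All 4 KO values were the higher ones (log2 fold change 0.63 ± 0.095, limma adjusted p = 0.000350). MRE11, the nuclease, had 16.1, 20.004, 17.1 and 20.1 FPKM in the KO libraries, against 11.5, 13.8, 14.1 and 14.0 FPKM in the WT libraries, and the groups did not overlap (log2 fold change 0.43 ± 0.098, limma adjusted p = 0.00400). RAD50, the ATPase that tethers the ends, averaged 16.01 ± 1.46 FPKM in KO and 17.6 ± 1.80 FPKM in WT and did not pass (log2 fold change -0.13 ± 0.092, limma adjusted p = 0.254). Upper-quartile scaling called it lower, at a log2 fold change of -0.33 (limma adjusted p = 0.00935). The ratio of RAD50 to NBN within a library, both per length, was 0.617, 0.642, 0.739 and 0.911 in KO, against 1.31, 1.22, 1.04 and 1.44 in WT. Those ranges did not meet, but the two-sided exact permutation p of 0.0286, the smallest possible, became 0.114 when adjusted over the 8 partner ratios computed.

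Of the 9 homologous recombination genes 3 rose and 1 fell, beside 42.6% and 25.7% of all genes, with a median log2 fold change of 0.15. Beside RAD52, XRCC3, which forms a complex with RAD51C, rose, with 37.6, 34.4, 34.6 and 36.8 FPKM in the KO libraries, against 22.8, 25.2, 19.4 and 22.5 FPKM in the WT libraries and no overlap (log2 fold change 0.66 ± 0.080, limma adjusted p = 8.78e-05). PALB2, which bridges BRCA1 and BRCA2, averaged 11.5 ± 1.40 FPKM in KO and 7.47 ± 0.970 FPKM in WT and rose by a log2 fold change of 0.56 ± 0.12 (limma adjusted p = 0.00219). The central pair did not pass. BRCA1 averaged 14.8 ± 0.631 FPKM in KO and 13.9 ± 1.58 FPKM in WT at a log2 fold change of 0.087 ± 0.085 (limma adjusted p = 0.389). BRCA2, the tumour suppressor that PALB2 recruits to breaks, averaged 8.63 ± 2.32 FPKM in KO and 7.67 ± 1.39 FPKM in WT at a log2 fold change of 0.13 ± 0.18 (limma adjusted p = 0.540). BARD1, the obligate partner of BRCA1 in its ubiquitin ligase, had 11.1, 42.9, 32.1 and 20.1 FPKM in the KO libraries, against 19.9, 6.73, 18.02 and 9.0 FPKM in the WT libraries. Single libraries differed about as much as the group means, and the change did not pass (log2 fold change 0.90 ± 0.45, limma adjusted p = 0.108). It passed without KO replicate 1, at a log2 fold change of 1.24 (limma adjusted p = 0.0264). RAD51C, the partner of XRCC3, averaged 31.2 ± 3.73 FPKM in KO and 33.0 ± 3.28 FPKM in WT and did not pass (log2 fold change -0.082 ± 0.10, limma adjusted p = 0.498). It was called lower with another scaling of the libraries, with upper-quartile scaling at a log2 fold change of -0.29 (limma adjusted p = 0.0212) and with quantile normalization at a log2 fold change of -0.28 (limma adjusted p = 0.0263). RAD54L, a DNA motor protein of recombination, averaged 25.5 ± 3.28 FPKM in KO and 23.0 ± 3.27 FPKM in WT and did not pass (log2 fold change 0.15 ± 0.12, limma adjusted p = 0.314).

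Of the 10 Fanconi anaemia genes, whose products unhook crosslinks between the DNA strands, 6 rose and none fell, beside 42.6% and 25.7% of all genes. The counts were 5 and 0 with upper-quartile scaling. They were 4 and 0 with window centring and 5 and 1 with neighbour centring, both described further on. FANCA (ENSG00000187741, chr16:89737549-89816657, minus strand), a scaffold of the core complex, had 123, 118, 122 and 111 FPKM in the KO libraries, against 56.3, 55.6, 62.9 and 57.4 FPKM in the WT libraries. All KO libraries lay far above the WT range, with tight replicates (log2 fold change 1.02 ± 0.055, limma adjusted p = 5.06e-07). FANCE, the core subunit that contacts FANCD2, had 20.8, 19.2, 18.5 and 21.0 FPKM in the KO libraries, against 13.7, 12.9, 14.0 and 13.5 FPKM in the WT libraries. The groups were apart here too (log2 fold change 0.52 ± 0.064, limma adjusted p = 9.50e-05). The substrates of the complex rose too. FANCI had 80.2, 81.4, 64.9 and 69.6 FPKM in the KO libraries, against 46.3, 54.8, 44.9 and 45.4 FPKM in the WT libraries, and no KO value came down to the WT range (log2 fold change 0.62 ± 0.093, limma adjusted p = 0.000347). FANCD2 averaged 29.1 ± 3.62 FPKM in KO and 19.4 ± 1.51 FPKM in WT at a log2 fold change of 0.56 ± 0.098 (limma adjusted p = 0.000882). Their ratio, FANCI over FANCD2, averaged 2.57 ± 0.419 in KO and 2.48 ± 0.270 in WT (exact permutation p = 0.771). FANCL, the ubiquitin ligase that marks both, had 20.8, 21.7, 20.4 and 27.3 FPKM in the KO libraries, against 12.9, 15.3, 13.2 and 13.0 FPKM in the WT libraries. KO replicate 4 was the highest, and the ranges did not meet (log2 fold change 0.68 ± 0.10, limma adjusted p = 0.000351). FANCG, another core subunit, rose least, by a log2 fold change of 0.28 ± 0.051 (limma adjusted p = 0.00111). It lost its call with upper-quartile scaling, at a log2 fold change of 0.066 (limma adjusted p = 0.204), and with quantile normalization, at a log2 fold change of 0.040 (limma adjusted p = 0.453). FANCB, FANCC, FANCF and FANCM, 3 core subunits and the translocase that brings the core to chromatin, averaged 5.24, 7.64, 2.16 and 6.66 FPKM in KO, against 4.82, 7.88, 2.36 and 7.12 FPKM in WT, and none passed (log2 fold changes -0.096 to 0.13).

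In the relay that marks chromatin around a break, 2 of 4 genes rose and 2 fell, beside 42.6% and 25.7% of all genes. RNF8, the first ubiquitin ligase of the relay, had 26.8, 24.7, 26.9 and 24.5 FPKM in the KO libraries, against 30.4, 40.1, 39.6 and 40.6 FPKM in the WT libraries. All KO libraries were lower (log2 fold change -0.52 ± 0.096, limma adjusted p = 0.00115). RNF168, the ligase that extends its mark, rose, with 6.79, 7.48, 7.75 and 7.18 FPKM in the KO libraries, against 4.18, 5.48, 4.96 and 4.79 FPKM in the WT libraries. The lowest KO library lay above the highest WT library (log2 fold change 0.51 ± 0.092, limma adjusted p = 0.00104). MDC1, the platform on which RNF8 docks, had 16.2, 17.3, 14.2 and 14.3 FPKM in the KO libraries, against 18.9, 28.0, 20.2 and 21.6 FPKM in the WT libraries. It fell without overlap (log2 fold change -0.48 ± 0.12, limma adjusted p = 0.00807). TP53BP1, which reads the RNF168 mark and shields ends from resection, averaged 18.8 ± 4.16 FPKM in KO and 12.2 ± 1.87 FPKM in WT and rose by a log2 fold change of 0.58 ± 0.16 (limma adjusted p = 0.0116). Its call was lost with upper-quartile scaling, at a log2 fold change of 0.37 (limma adjusted p = 0.0670).

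End joining held the most abundant transcripts of the set. XRCC6 and XRCC5, which encode Ku70 and Ku80, ranked first and second of the 43 genes by mean FPKM in KO as in WT. XRCC5 (ENSG00000079246, chr2:216107464-216206303, plus strand) had 423, 525, 455 and 456 FPKM in the KO libraries, against 146, 188, 172 and 183 FPKM in the WT libraries, with wide separation (log2 fold change 1.43 ± 0.092, limma adjusted p = 1.48e-06). XRCC6 (ENSG00000196419, chr22:41621119-41664048, plus strand) had 449.8, 484, 464 and 480.3 FPKM in the KO libraries, against 244, 248, 241 and 260.1 FPKM in the WT libraries. These were likewise apart (log2 fold change 0.92 ± 0.040, limma adjusted p = 1.59e-07). The XRCC6 to XRCC5 ratio within a library was 1.06, 0.922, 1.02 and 1.05 in KO, against 1.67, 1.32, 1.40 and 1.42 in WT. The FPKM ratio lay nearer to 1 in KO, but the exact permutation p of 0.0286 became 0.114 when adjusted over the 8 ratios. LIG4, the ligase that seals the ends, had 5.58, 6.44, 6.71 and 5.70 FPKM in the KO libraries, against 3.17, 2.84, 2.75 and 3.07 FPKM in the WT libraries. The KO libraries were again the higher ones (log2 fold change 0.84 ± 0.089, limma adjusted p = 3.60e-05). Its partner XRCC4 averaged 12.2 ± 0.379 FPKM in KO and 11.3 ± 0.461 FPKM in WT and did not pass (log2 fold change 0.095 ± 0.062, limma adjusted p = 0.206). PRKDC, the catalytic subunit of DNA-PK, had 112, 70.6, 90.3 and 79.4 FPKM in the KO libraries, against 60.2, 82.7, 67.6 and 57.2 FPKM in the WT libraries. Those ranges overlapped, and the change fell short of the threshold (log2 fold change 0.39 ± 0.16, limma adjusted p = 0.0561). It passed without KO replicate 2, at a log2 fold change of 0.48 (limma adjusted p = 0.0251), or without WT replicate 2, at a log2 fold change of 0.49 (limma adjusted p = 0.0220).

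Both mismatch repair genes rose, beside 42.6% of all genes. PMS2, which cuts the strand that carries the error, had 5.39, 6.21, 5.86 and 6.43 FPKM in the KO libraries, against 3.55, 3.23, 3.82 and 3.58 FPKM in the WT libraries. The groups were clearly apart (log2 fold change 0.62 ± 0.086, limma adjusted p = 0.000212). MSH6, which takes part in recognising the mismatch, had 59.8, 73.0, 77.1 and 81.7 FPKM in the KO libraries, against 59.9, 52.0, 55.5 and 60.5 FPKM in the WT libraries. KO replicate 1 lay within the WT range (log2 fold change 0.34 ± 0.098, limma adjusted p = 0.0124). The call was lost with upper-quartile scaling, at a log2 fold change of 0.13 (limma adjusted p = 0.264), and with quantile normalization, at a log2 fold change of 0.11 (limma adjusted p = 0.341).

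Nucleotide excision repair, which removes bulky adducts, had 3 of 5 genes higher and 2 lower, beside 42.6% and 25.7% of all genes. ERCC1 (ENSG00000012061, chr19:45407333-45478828, minus strand), part of the nuclease that cuts 5′ of the lesion and a neighbour of ERCC2 on chromosome 19, had 212, 193, 200.0 and 170.2 FPKM in the KO libraries, against 69.4, 78.4, 73.2 and 71.9 FPKM in the WT libraries. The KO values were all far above the WT values (log2 fold change 1.39 ± 0.071, limma adjusted p = 3.76e-07). XPC, the sensor of distorted DNA, had 10.6, 13.1, 13.3 and 12.8 FPKM in the KO libraries, against 4.63, 5.06, 7.25 and 5.85 FPKM in the WT libraries. It rose without overlap (log2 fold change 1.02 ± 0.13, limma adjusted p = 0.000132). The other sensor fell: DDB2, which finds ultraviolet lesions, had 22.7, 27.4, 21.9 and 27.3 FPKM in the KO libraries, against 35.2, 36.9, 34.9 and 31.1 FPKM in the WT libraries. Each KO value was the lower one (log2 fold change -0.46 ± 0.091, limma adjusted p = 0.00170). XPA, which checks the lesion before it is cut out, averaged 13.4 ± 0.574 FPKM in KO and 15.9 ± 1.04 FPKM in WT and fell by 0.24 ± 0.068 on the log2 scale (limma adjusted p = 0.0130). XRCC1, the scaffold of single-strand break repair, averaged 16.8 ± 1.68 FPKM in KO and 15.2 ± 1.07 FPKM in WT and did not pass (log2 fold change 0.13 ± 0.088, limma adjusted p = 0.212). It passed without KO replicate 4, at a log2 fold change of 0.20 (limma adjusted p = 0.0433).

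Of the 43 loci, 20 overlap another coding gene in GENCODE 29, and no source used here states whether counting used the strand, so reads of such pairs may not be told apart. ERCC1 overlaps CD3EAP, which averaged 38.4 ± 1.75 FPKM in KO and 12.8 ± 2.86 FPKM in WT. FANCI overlaps POLG, at 117 ± 63.6 FPKM in KO and 67.4 ± 45.5 FPKM in WT, and FANCA overlaps ZNF276, at 29.7 ± 4.80 FPKM in KO and 19.4 ± 3.97 FPKM in WT. TP53BP1 overlaps TUBGCP4, at 15.6 ± 3.55 FPKM in KO and 6.60 ± 1.46 FPKM in WT, and XPC overlaps LSM3, at 22.8 ± 1.34 FPKM in KO and 16.1 ± 0.599 FPKM in WT. Other partners stood lower in KO: ANKRD49, beside MRE11, averaged 7.27 ± 0.816 FPKM in KO and 10.6 ± 0.519 FPKM in WT, and DECR1, beside NBN, averaged 27.5 ± 2.26 FPKM in KO and 35.2 ± 3.52 FPKM in WT. KLC1, beside XRCC3, averaged 62.8 ± 8.73 FPKM in KO and 74.7 ± 2.94 FPKM in WT. CHEK1 overlaps STT3A on the same strand, at 259 ± 14.6 FPKM in KO and 340 ± 19.0 FPKM in WT. ERCC2 overlaps KLC3, which averaged 0.216 ± 0.155 FPKM in KO and 3.09 ± 0.375 FPKM in WT. RAD52, XRCC2, XRCC5 and XRCC6 overlap no coding gene. CHEK2, FANCD2 and PMS2 have pseudogene copies that can share their reads, so their values are less certain.

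The repair genes were also set against their neighbours on the chromosome. For each gene, the median log2 fold change of the other tested genes in the same 20 Mb window of its chromosome was taken, over 44 to 410 genes. In MDA-MB-231 these medians ran from -0.44 to 0.97, and 29 of the 43 repair genes lay above the median of their window and 14 below. FANCA, at 1.02, sat in the highest window, whose other 82 genes had a median of 0.97. ATR, at 0.30, sat in a window with a median of 0.82, and LIG4, at 0.84, in one with 0.75. MDC1, at -0.48, and RNF8, at -0.52, shared a window on chromosome 6 whose other 262 genes had a median of -0.43. FANCE, in the same window, rose by 0.52 on the log2 scale. ERCC1 and ERCC2 shared a window on chromosome 19 with a median of 0.038.

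Subtracting the shift of the window in each library, an alternative chosen after seeing the data and called neighbour centring here, left 19 genes higher and 4 lower, beside 31.8% and 31.6% of all genes. The centred log2 fold changes ended the calls of FANCA, now 0.029 (limma adjusted p = 0.648), FANCD2, 0.043 (limma adjusted p = 0.704), TP53BP1, 0.15 (limma adjusted p = 0.443), and LIG4, 0.026 (limma adjusted p = 0.810). The calls of MDC1, -0.080 (limma adjusted p = 0.597), RNF8, -0.13 (limma adjusted p = 0.304), MSH6, -0.017 (limma adjusted p = 0.887), and XPA, -0.14 (limma adjusted p = 0.113), ended too. It called ATR lower, at -0.52 (limma adjusted p = 0.0208), FANCF lower, at -0.49 (limma adjusted p = 0.00311), and FANCB higher, at 0.50 (limma adjusted p = 0.0245). RAD52 kept 1.27 (limma adjusted p = 2.06e-05), XRCC5 kept 0.95 (limma adjusted p = 1.47e-05), XRCC6 kept 0.89 (limma adjusted p = 1.60e-07), ERCC1 kept 1.30 (limma adjusted p = 8.32e-07) and ERCC2 kept 1.43 (limma adjusted p = 3.45e-07). XRCC2 stayed lower, at -0.40 (limma adjusted p = 0.00143), though centring on the median level of the window instead ended its call, at -0.17 (limma adjusted p = 0.145), and that of FANCL, at 0.18 (limma adjusted p = 0.174). What sets the shifts of these windows was not tested. Under every alternative run, the calls of 17 genes held, those of ATM, CHEK1, NBN, MRE11, PALB2, RAD52, XRCC3, FANCE, FANCI, RNF168, XRCC5, XRCC6, PMS2, XPC, ERCC1 and ERCC2, all higher, and of DDB2, lower.

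**Figure D2:**
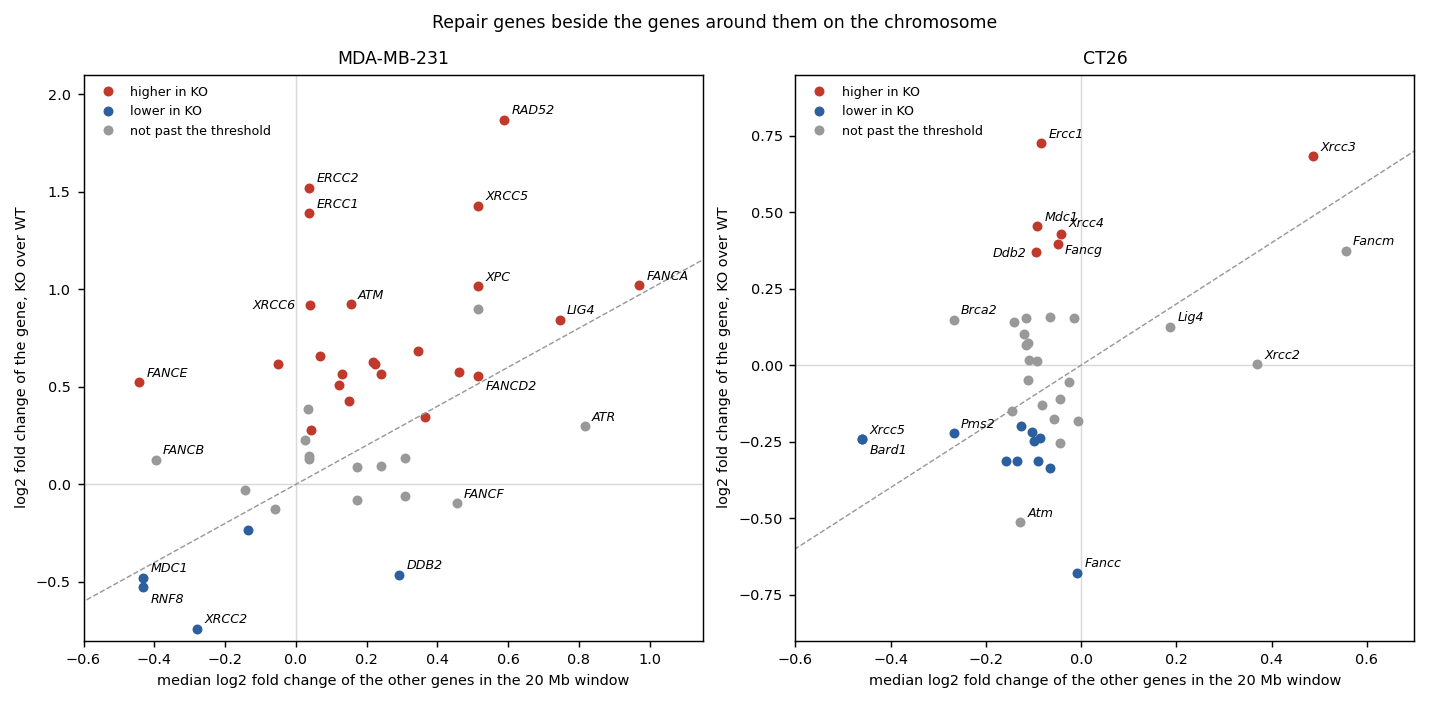
Log2 fold change of each repair gene (vertical axis) against the median log2 fold change of the other genes in its 20 Mb window (horizontal axis), in MDA-MB-231 (left) and CT26 (right), where the dashed line marks equality. In MDA-MB-231, FANCA, FANCD2, MDC1 and RNF8 lie near the line, while RAD52, XRCC5, ERCC1 and ERCC2 lie well above it and DDB2 below it.

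In CT26 fewer of these genes passed, and more of them fell than rose, an excess that upper-quartile scaling removed. Of the 40 tested, 6 rose (Xrcc3, Fancg, Mdc1, Xrcc4, Ercc1 and Ddb2), 12 fell (Atr, Chek1, Chek2, Nbn, Brca1, Bard1, Fancb, Fancc, Rnf8, Xrcc5, Msh6 and Pms2) and 22 did not pass. Limma called 55.8% of all 11342 genes tested in this line, 22.3% higher and 33.5% lower, so the share of repair genes that fell was close to that of all genes. The median log2 fold change was -0.052 over the 40 genes and -0.059 over all genes. With upper-quartile scaling 7 were higher and 7 lower, beside 29.2% and 25% of all genes, and Chek1, Chek2, Nbn, Rnf8 and Pms2 lost their calls. None changed 2-fold, where 3.85% of all genes did, 1.94% higher and 1.91% lower. Every KO library lay above every WT library in 6 genes and below in 8, 14 in all, beside 20.3%, 31.1% and 51.5% of all genes. Levels cannot be set against those of MDA-MB-231, since the tables were normalized apart.

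**Figure D3:**
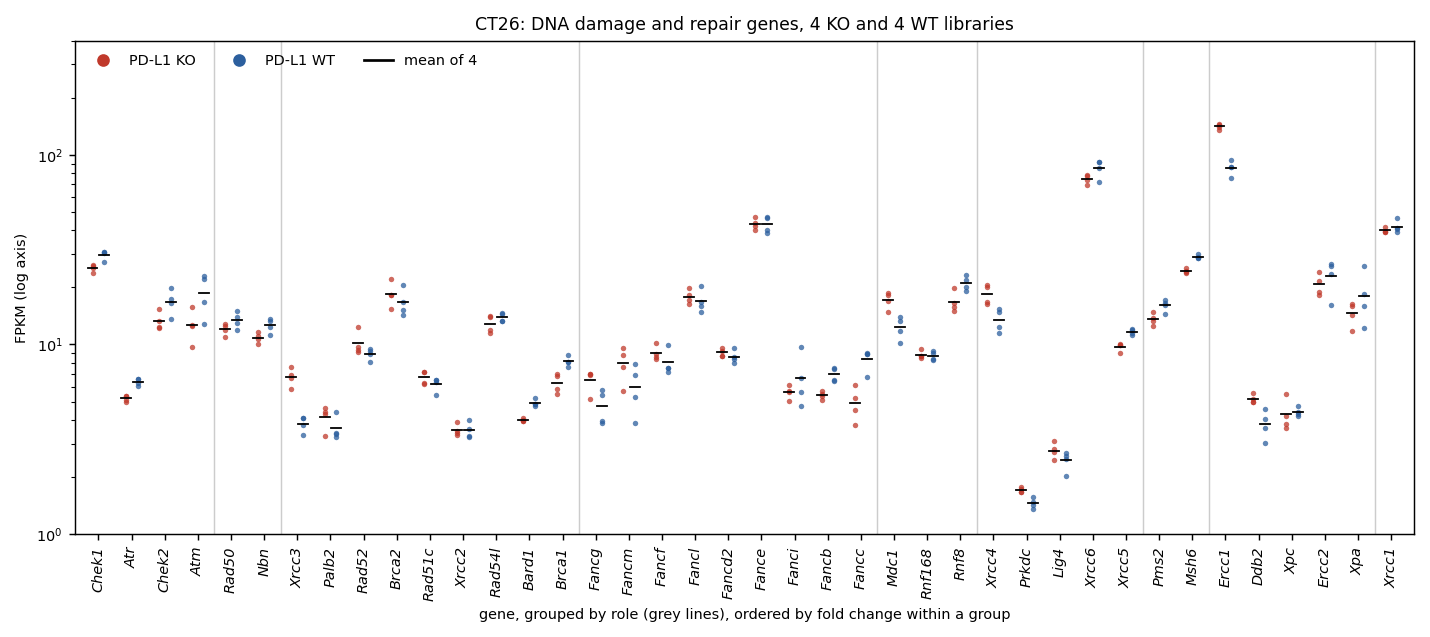
FPKM on a log axis of the 40 repair genes tested in CT26, in the 4 KO (red, left) and 4 WT (blue, right) libraries, with black bars at the group means and grey lines between role groups. Ercc1 and Xrcc3 stand higher in KO and Fancc lower, most other pairs of groups lie close together, and Prkdc has the lowest level of the set.

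Of the 4 damage kinases, 3 fell by small amounts, beside 33.5% of all genes. That count was 1 with upper-quartile scaling and 0 with window or neighbour centring. Atr had 5.37, 5.08, 5.38 and 4.96 FPKM in the KO libraries, against 6.56, 6.54, 6.06 and 6.26 FPKM in the WT libraries, with no overlap (log2 fold change -0.25 ± 0.052, limma adjusted p = 0.00361). Chek1 had 25.9, 26.3, 25.4 and 23.9 FPKM in the KO libraries, against 27.1, 30.3, 30.7 and 30.6 FPKM in the WT libraries, the KO values all being the lower ones (log2 fold change -0.22 ± 0.052, limma adjusted p = 0.00704). Chek2 had 12.4, 13.3, 15.4 and 12.2 FPKM in the KO libraries, against 16.6, 13.7, 17.3 and 19.8 FPKM in the WT libraries. It fell with overlap between the groups (log2 fold change -0.31 ± 0.11, limma adjusted p = 0.0422). Its call was lost when KO replicate 1, 2 or 4 or WT replicate 1, 3 or 4 was left out, with limma adjusted p between 0.0759 and 0.101. Atm averaged 12.6 ± 2.47 FPKM in KO and 18.7 ± 4.78 FPKM in WT and did not pass (log2 fold change -0.51 ± 0.20, limma adjusted p = 0.0536). It passed without KO replicate 1, at a log2 fold change of -0.62 (limma adjusted p = 0.0370), or without WT replicate 2, at a log2 fold change of -0.67 (limma adjusted p = 0.0115).

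Of the MRN genes, Nbn had 10.7, 11.1, 11.7 and 10.1 FPKM in the KO libraries, against 13.3, 12.4, 11.2 and 13.7 FPKM in the WT libraries. The ranges overlapped, and Nbn fell by 0.20 ± 0.070 on the log2 scale (limma adjusted p = 0.0407). That call was lost without KO replicate 1, 2 or 4 or WT replicate 1, 2 or 4, with limma adjusted p between 0.0642 and 0.0985. Rad50 averaged 12.1 ± 0.833 FPKM in KO and 13.5 ± 1.33 FPKM in WT at a log2 fold change of -0.15 ± 0.077 (limma adjusted p = 0.130). It passed without WT replicate 4, at a log2 fold change of -0.20 (limma adjusted p = 0.0474). Mre11a averaged 46.7 ± 8.20 FPKM in KO and 55.2 ± 6.30 FPKM in WT and did not pass (log2 fold change -0.24 ± 0.13, limma adjusted p = 0.140). It was called lower without KO replicate 3, at a log2 fold change of -0.34 (limma adjusted p = 0.0416).

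Among the recombination genes Xrcc3 was the only one called higher, while Brca1 and Bard1 fell together. Xrcc3 had 6.67, 5.81, 6.91 and 7.60 FPKM in the KO libraries, against 4.09, 3.35, 4.07 and 3.76 FPKM in the WT libraries, a clear separation (log2 fold change 0.68 ± 0.087, limma adjusted p = 0.000233). Brca1 had 6.83, 5.83, 7.0 and 5.47 FPKM in the KO libraries, against 8.85, 8.13, 7.61 and 8.06 FPKM in the WT libraries. Its KO libraries were all lower (log2 fold change -0.34 ± 0.083, limma adjusted p = 0.00850). Bard1 had 4.02, 3.97, 4.10 and 3.96 FPKM in the KO libraries, against 4.88, 4.88, 5.21 and 4.74 FPKM in the WT libraries. The KO replicates were tight (log2 fold change -0.24 ± 0.051, limma adjusted p = 0.00367). The ratio of Brca1 to Bard1 was 1.56 ± 0.166 in KO and 1.66 ± 0.146 in WT (exact permutation p = 0.486). Rad52, the steepest riser in the human line, averaged 10.1 ± 1.51 FPKM in KO and 8.95 ± 0.598 FPKM in WT here and did not pass (log2 fold change 0.15 ± 0.095, limma adjusted p = 0.201). Xrcc2, the deepest faller there, averaged 3.54 ± 0.252 FPKM in KO and 3.53 ± 0.344 FPKM in WT and did not pass either (log2 fold change 0.0031 ± 0.075, limma adjusted p = 0.974). Brca2, Palb2, Rad51c and Rad54l did not pass either, with log2 fold changes from -0.11 for Rad54l to 0.16 for Palb2.

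Fancc, a subunit of the Fanconi core complex, fell the most of all 40 genes. It had 5.19, 4.52, 3.75 and 6.11 FPKM in the KO libraries, against 8.88, 6.73, 9.02 and 8.90 FPKM in the WT libraries, and the groups did not meet (log2 fold change -0.68 ± 0.14, limma adjusted p = 0.00309). Fancb, another core subunit, had 5.46, 5.35, 5.68 and 5.07 FPKM in the KO libraries, against 7.43, 7.48, 6.39 and 6.52 FPKM in the WT libraries, also lower throughout (log2 fold change -0.31 ± 0.066, limma adjusted p = 0.00387). Fancg had 7.0, 5.16, 6.90 and 6.99 FPKM in the KO libraries, against 3.95, 5.78, 3.84 and 5.42 FPKM in the WT libraries. One KO library lay inside the WT range (log2 fold change 0.39 ± 0.14, limma adjusted p = 0.0407). The call was lost without KO replicate 1, 3 or 4 or WT replicate 1 or 3, with limma adjusted p between 0.0901 and 0.0993. Fancd2, Fance, Fancf, Fanci, Fancl and Fancm did not pass, with log2 fold changes from -0.18 for Fanci to 0.37 for Fancm, and Fancf passed without WT replicate 1, at a log2 fold change of 0.25 (limma adjusted p = 0.0215).

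In the chromatin relay Mdc1 rose and Rnf8 fell. Mdc1 had 18.2, 17.0, 18.7 and 14.8 FPKM in the KO libraries, against 11.7, 10.2, 13.4 and 14.0 FPKM in the WT libraries and no overlap (log2 fold change 0.45 ± 0.11, limma adjusted p = 0.00700). Rnf8 had 16.6, 15.8, 14.99 and 19.8 FPKM in the KO libraries, against 19.2, 20.03, 21.9 and 23.1 FPKM in the WT libraries. KO replicate 4 lay within the WT range (log2 fold change -0.31 ± 0.092, limma adjusted p = 0.0194), and it did not pass without KO replicate 2 or without WT replicate 4 (limma adjusted p = 0.0513 and 0.0508). Rnf168 averaged 8.84 ± 0.415 FPKM in KO and 8.72 ± 0.464 FPKM in WT (log2 fold change 0.018 ± 0.054, limma adjusted p = 0.793), short of the threshold. Trp53bp1 did not pass either and averaged 23.9 ± 1.67 FPKM in KO and 24.8 ± 0.908 FPKM in WT (log2 fold change -0.051 ± 0.054, limma adjusted p = 0.449).

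For end joining, Xrcc5 had 9.89, 10.1, 9.01 and 9.97 FPKM in the KO libraries, against 11.3, 11.9, 12.1 and 11.6 FPKM in the WT libraries, a small fall without overlap (log2 fold change -0.24 ± 0.049, limma adjusted p = 0.00321). Xrcc6 averaged 74.8 ± 4.03 FPKM in KO and 85.0 ± 9.37 FPKM in WT and did not pass (log2 fold change -0.18 ± 0.081, limma adjusted p = 0.0965). It passed without WT replicate 4, at a log2 fold change of -0.25 (limma adjusted p = 0.00482). The Xrcc6 to Xrcc5 ratio averaged 7.69 ± 0.256 in KO and 7.28 ± 0.820 in WT (exact permutation p = 0.429). Xrcc4 rose, with 20.1, 16.4, 16.8 and 20.6 FPKM in the KO libraries, against 15.4, 11.4, 12.3 and 14.9 FPKM in the WT libraries. Each KO value exceeded each WT value (log2 fold change 0.43 ± 0.11, limma adjusted p = 0.0111). Its partner Lig4 averaged 2.76 ± 0.262 FPKM in KO and 2.45 ± 0.287 FPKM in WT without passing (log2 fold change 0.13 ± 0.086, limma adjusted p = 0.247). Prkdc had the lowest mean FPKM of the 40 genes in KO and in WT, whereas PRKDC had rank 6 of 43 in KO and rank 4 in WT of the human line. Rodent cells are known for little DNA-PK activity. Prkdc had 1.74, 1.67, 1.67 and 1.77 FPKM in the KO libraries, against 1.48, 1.43, 1.58 and 1.36 FPKM in the WT libraries. Every KO library was the higher one, but the change fell short of the threshold (log2 fold change 0.14 ± 0.064, limma adjusted p = 0.0911). It passed with upper-quartile scaling, at a log2 fold change of 0.20 (limma adjusted p = 0.0320).

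Both mismatch repair genes fell slightly, beside 33.5% of all genes. With window centring neither was called, Msh6 at 0.027 (limma adjusted p = 0.630) and Pms2 at -0.033 (limma adjusted p = 0.754). Msh6 had 25.3, 24.5, 23.7 and 24.2 FPKM in the KO libraries, against 28.4, 28.8, 28.5 and 30.1 FPKM in the WT libraries. Replicates were close together in each group and did not overlap between them (log2 fold change -0.24 ± 0.036, limma adjusted p = 0.000656). Pms2 had 14.8, 13.8, 12.6 and 13.3 FPKM in the KO libraries, against 16.1, 14.5, 16.6 and 17.1 FPKM in the WT libraries. The groups overlapped (log2 fold change -0.22 ± 0.067, limma adjusted p = 0.0202), and the limma adjusted p was between 0.0511 and 0.0525 without KO replicate 3 or WT replicate 3 or 4.

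Excision repair had the largest rise of CT26 on the log2(FPKM + 1) scale, that of Ercc1. By the ratio of mean FPKM Ercc1 was 1.66-fold higher in KO, against 1.77-fold for Xrcc3. Ercc1 had 144, 135, 141 and 146 FPKM in the KO libraries, against 75.2, 86.8, 86.0 and 93.6 FPKM in the WT libraries, and no library of one group came near the other (log2 fold change 0.73 ± 0.063, limma adjusted p = 2.81e-05). It was also the most abundant of the 40 transcripts by mean FPKM. Ddb2 had 5.18, 4.99, 5.56 and 4.98 FPKM in the KO libraries, against 4.56, 3.04, 4.02 and 3.62 FPKM in the WT libraries, likewise higher throughout (log2 fold change 0.37 ± 0.099, limma adjusted p = 0.0122). Ercc2 averaged 20.7 ± 2.74 FPKM in KO and 23.0 ± 4.77 FPKM in WT and did not pass (log2 fold change -0.13 ± 0.16, limma adjusted p = 0.517). It passed without WT replicate 2, at a log2 fold change of -0.28 (limma adjusted p = 0.0499). Xpa, at a log2 fold change of -0.25 ± 0.20 (limma adjusted p = 0.321), Xpc, at a log2 fold change of -0.048 ± 0.11 (limma adjusted p = 0.729), and Xrcc1, at a log2 fold change of -0.057 ± 0.055 (limma adjusted p = 0.411), did not pass.

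The windows of CT26 had medians from -0.46 to 0.56. Bard1 and Xrcc5 shared a window on chromosome 1 with a median of -0.46 over 79 other genes, lower than their own changes of -0.24 for both. With neighbour centring both came out higher, Bard1 at 0.19 (limma adjusted p = 0.0220) and Xrcc5 at 0.20 (limma adjusted p = 0.0285). Xrcc3 lay in a window with a median of 0.49 and lost its call, at 0.19 (limma adjusted p = 0.0894). The calls of Atr, Chek1, Chek2, Nbn, Fancb, Rnf8 and Pms2 ended as well, Brca2, Rad51c, Rad52, Fancd2 and Prkdc were now called higher, and Xrcc2 was called lower, at -0.36 (limma adjusted p = 0.00568). In all, 12 genes were then higher and 4 lower, beside 22.4% each way of all genes. The calls of Brca1 and Fancc, lower, and of Mdc1, Xrcc4, Ercc1 and Ddb2, higher, held under every alternative that tested them. With a minimum of 5 FPKM Ddb2 was not tested.

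The change with knockout differed between the lines in 28 of the 40 genes tested in both, 24 with a more positive change in MDA-MB-231 and 4 with a more positive change in CT26. Of all 8674 genes paired by symbol, 72.2% differed in the same test, 50.1% and 22% in those directions, so the share among repair genes was close to that of all genes. With upper-quartile scaling the split of the repair genes was 13 and 10, beside 35% and 33.9% of all genes. XRCC5 differed with the smallest adjusted p, its log2 fold change being 1.43 in MDA-MB-231 and -0.24 in CT26, a difference of 1.67 ± 0.11 (limma adjusted p = 3.66e-10). RAD52 differed by 1.71 ± 0.16 (limma adjusted p = 4.95e-08), ERCC2 by 1.65 ± 0.18 (limma adjusted p = 3.04e-07), XRCC6 by 1.09 ± 0.091 (limma adjusted p = 1.18e-08) and XPC by 1.06 ± 0.17 (limma adjusted p = 3.23e-05). ATM differed by 1.44 ± 0.27 (limma adjusted p = 0.000143). The calls of BARD1, FANCB, PALB2 and XRCC4 rested on single libraries. That of BARD1, 1.14 ± 0.46 (limma adjusted p = 0.0363), was lost without KO replicate 2 or 3 or WT replicate 2 or 4 of MDA-MB-231, or KO replicate 1, 2 or 4 or WT replicate 1, 2 or 3 of CT26, with limma adjusted p up to 0.0842. That of FANCB, 0.44 ± 0.17 (limma adjusted p = 0.0316), was lost without KO replicate 2 or WT replicate 3 or 4 of MDA-MB-231, or KO replicate 4 or WT replicate 1 or 2 of CT26 (limma adjusted p up to 0.0699). That of PALB2, 0.41 ± 0.16 (limma adjusted p = 0.0334), was lost without KO replicate 2 or 4 or WT replicate 3 or 4 of MDA-MB-231, or KO replicate 4 or WT replicate 4 of CT26 (limma adjusted p up to 0.0770). That of XRCC4, -0.33 ± 0.13 (limma adjusted p = 0.0302), was lost without KO replicate 4 or WT replicate 2 of MDA-MB-231, or KO replicate 1 or 4 or WT replicate 2 or 3 of CT26 (limma adjusted p up to 0.0701). FANCF, RNF8 and XRCC1 came to pass without 1 library, which was WT replicate 1 of CT26 for FANCF, and WT replicate 1 and KO replicate 4 of MDA-MB-231 for RNF8 and XRCC1.

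In all, 5 genes rose in MDA-MB-231 KO and fell in CT26 KO, namely CHEK1, NBN, XRCC5, MSH6 and PMS2, where 17.9% of paired genes did so. MDC1 and DDB2 fell in MDA-MB-231 KO and rose in CT26 KO, as 5.48% of paired genes did, with differences of -0.93 ± 0.17 (limma adjusted p = 0.000101) and -0.83 ± 0.14 (limma adjusted p = 4.31e-05). XRCC3, FANCG and ERCC1 rose in both lines, beside 11.5% of paired genes, and RNF8 fell in both, beside 9.03%, so 4 genes were called in the same direction, beside 20.5%. XRCC3 changed by 0.66 in MDA-MB-231 and 0.68 in CT26, a difference of -0.028 ± 0.12 (limma adjusted p = 0.85). That difference depended on the scaling, and passed with upper-quartile scaling, at -0.31 (limma adjusted p = 0.0407). So did those of FANCG, at -0.41 (limma adjusted p = 0.0201), and RNF8, at -0.51 (limma adjusted p = 0.00245). ERCC1 changed in the same direction but more in MDA-MB-231, by 0.66 ± 0.097 (limma adjusted p = 1.04e-05). For 8 genes the test passed in neither line.

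**Figure D4:**
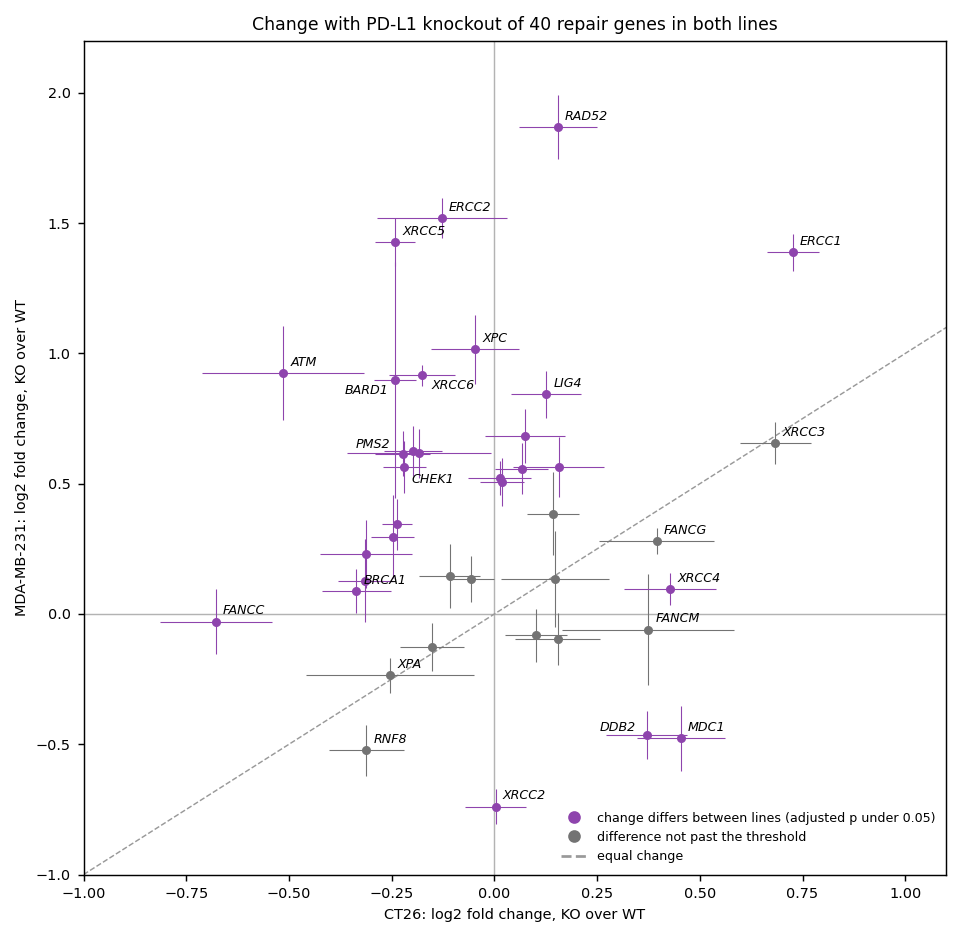
Log2 fold change, KO over WT, of 40 repair genes in MDA-MB-231 (vertical axis) against CT26 (horizontal axis), with SE bars and a dashed line of equal change. Purple genes differed between the lines in limma. Most purple points lie above the dashed line, with RAD52, ERCC2 and XRCC5 highest, and MDC1, DDB2, XRCC2 and XRCC4 lie below it.

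The other repair genes, 100 in 10 lists beside the 43, were taken from the same routes. In MDA-MB-231, 58 of 100 were higher and 12 lower in KO (median log2 fold change 0.33), against the 42.6% and 25.7% of all genes, and 41 and 24 with upper-quartile scaling. In CT26, 29 of 96 tested were higher and 26 lower, against 22.3% and 33.5% of all genes, and 22 and 12 with window centring. Base excision and single-strand break repair, which replaces damaged single bases, had 15 of 20 genes higher and 2 lower in MDA-MB-231, with a median of 0.65. UNG, which removes uracil from DNA, averaged 107 ± 5.90 FPKM in KO and 37.6 ± 0.8 FPKM in WT (log2 fold change 1.48 ± 0.050, limma adjusted p = 3.46e-08). APEX1, the nuclease at the resulting gap, rose by a log2 fold change of 1.23 ± 0.058 (limma adjusted p = 2.38e-07), and FEN1, which trims the flap, by a log2 fold change of 1.26 ± 0.062 (limma adjusted p = 2.91e-07). In CT26 the same list had 6 of 19 higher and 3 lower. Ung averaged 11.9 ± 1.90 FPKM in KO and 22.0 ± 1.48 FPKM in WT and fell (log2 fold change -0.84 ± 0.10, limma adjusted p = 0.000204). PARP1, the strand break sensor, rose in MDA-MB-231 KO, with 152 FPKM in KO and 64.5 FPKM in WT (log2 fold change 1.23 ± 0.065, limma adjusted p = 4.33e-07). Parp1 fell in CT26 KO, with 46.2 FPKM in KO and 64.1 FPKM in WT (log2 fold change -0.46 ± 0.030, limma adjusted p = 5.47e-06).

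The 14 genes of the checkpoint clamp and its mediators were 7 higher and 1 lower in MDA-MB-231, beside 42.6% and 25.7% of all genes. They were 4 higher and 2 lower in CT26, beside 22.3% and 33.5% of all genes. The same shares stand beside the counts of the lists that follow. TIPIN, which protects stalled forks, averaged 45.0 FPKM in KO and 15.8 FPKM in WT (log2 fold change 1.45 ± 0.063, limma adjusted p = 1.46e-07). TOPBP1, an activator of ATR, averaged 44.5 FPKM in KO and 21.5 FPKM in WT (log2 fold change 1.02 ± 0.092, limma adjusted p = 1.25e-05). RAD1, a subunit of the clamp, rose in both lines, by a log2 fold change of 0.74 ± 0.061 (limma adjusted p = 7.55e-06) in MDA-MB-231 and by a log2 fold change of 0.80 ± 0.057 (limma adjusted p = 9.62e-06) in CT26. Of 17 resection and junction genes, 9 were higher and 1 lower in MDA-MB-231, led by TOP3A, the topoisomerase that dissolves joined molecules, at a log2 fold change of 1.39 ± 0.054 (limma adjusted p = 7.37e-08). In CT26 3 were higher and 7 lower, with the resection nuclease Exo1 at 36.0 FPKM in KO and 60.5 FPKM in WT (log2 fold change -0.73 ± 0.060, limma adjusted p = 1.98e-05). Its partner in end processing Rbbp8 stood at a log2 fold change of -0.54 ± 0.048 (limma adjusted p = 3.02e-05). The 9 further Fanconi factors were 4 higher and 0 lower in MDA-MB-231, but 1 higher and 2 lower with upper-quartile scaling and 1 and 1 with quantile normalization. FAAP100 stood at a log2 fold change of 0.47 ± 0.075 (limma adjusted p = 0.000471). They were 4 higher and 3 lower in CT26, with Faap20 at a log2 fold change of 1.02 ± 0.11 (limma adjusted p = 0.000104).

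For the next lists too, 42.6% of all genes were higher and 25.7% lower in MDA-MB-231, and 22.3% and 33.5% in CT26. The single-strand binder RPA had RPA1 and RPA3 higher and RPA2 lower in MDA-MB-231, and Rpa1 and Rpa2 lower in CT26. Of 6 effectors of 53BP1, 4 were higher and 0 lower in MDA-MB-231, and 2 and 1 with upper-quartile scaling, with the shieldin subunit SHLD2 at a log2 fold change of 1.03 ± 0.078 (limma adjusted p = 4.11e-06). In CT26 3 were tested, of which Paxip1 rose (log2 fold change 0.33 ± 0.079, limma adjusted p = 0.00751) and Rif1 fell (log2 fold change -0.45 ± 0.099, limma adjusted p = 0.00466). The 6 other end joining factors were 3 higher and 1 lower in each line, but 1 higher and 2 lower in MDA-MB-231 with upper-quartile scaling or quantile normalization. In MDA-MB-231 APLF, a Ku-binding factor, averaged 0.729 FPKM in KO, below the filter minimum of 1 FPKM, and 2.66 FPKM in WT. It was lower in KO there (log2 fold change -1.09 ± 0.11, limma adjusted p = 2.70e-05). NHEJ1, the XLF partner of XRCC4, rose by a log2 fold change of 0.90 ± 0.16 (limma adjusted p = 0.000867) there. Nhej1 fell in CT26, with a log2 fold change of -0.49 ± 0.079 (limma adjusted p = 0.000853), though its status in the authors' deposited table marks it as not tested there. Of 15 further nucleotide excision genes, 9 were higher and 3 lower in MDA-MB-231, with the TFIIH subunit GTF2H3 at a log2 fold change of 1.35 ± 0.10 (limma adjusted p = 4.73e-06). The list had 7 higher and 3 lower in CT26, with Ddb1, the partner of Ddb2, at a log2 fold change of 0.40 ± 0.027 (limma adjusted p = 6.66e-06). Translesion synthesis had 3 higher and 3 lower of 8 in MDA-MB-231, and 1 higher and 3 lower in CT26. Of 3 further mismatch repair genes, PMS1 and MSH3 were higher in MDA-MB-231, by a log2 fold change of 0.93 ± 0.16 (limma adjusted p = 0.000805) and a log2 fold change of 0.32 ± 0.087 (limma adjusted p = 0.0103). In CT26 Mlh3 rose (log2 fold change 0.55 ± 0.081, limma adjusted p = 0.000538) and Pms1 fell (log2 fold change -0.46 ± 0.099, limma adjusted p = 0.00440).

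The counts of these lists moved with the processing, as did those of all genes. Upper-quartile scaling called 32.8% of all genes higher and 33.6% lower in MDA-MB-231, and 29.2% and 25% in CT26. Neighbour centring called 31.8% and 31.6% in MDA-MB-231, and 22.4% each way in CT26. With upper-quartile scaling, the counts higher and lower in MDA-MB-231 were 12 and 4 for base excision, 6 and 4 for the checkpoint clamp, 8 and 3 for resection, 5 and 3 for the further nucleotide excision genes, 3 and 4 for translesion synthesis and 1 and 0 for the further mismatch repair genes. In CT26 they were 9 and 2 for base excision and 4 and 1 for the further Fanconi factors. Neighbour centring turned translesion synthesis to 0 and 3 in MDA-MB-231 and to 3 and 0 in CT26, and gave 1 and 4 for resection in CT26. Several single calls ended too. In CT26 neighbour centring left the log2 fold change of Rbbp8 at -0.068 (limma adjusted p = 0.341), Paxip1 at -0.037 (limma adjusted p = 0.722) and Nhej1 at -0.056 (limma adjusted p = 0.594). It left Parp1 at -0.022 (limma adjusted p = 0.594), Mlh3 at -0.0012 (limma adjusted p = 0.991) and Pms1 at -0.078 (limma adjusted p = 0.525). In MDA-MB-231 the log2 fold change of MSH3 came to 0.063 (limma adjusted p = 0.515), and NHEJ1 lost its call with window centring, at 0.21 (limma adjusted p = 0.191).

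Genes that DNA damage is known to induce through p53 gave different counts in the lines, a contrast that was not tested for the list. In MDA-MB-231, a line known to carry mutant p53, 5 of 20 tested were higher and 7 lower in KO, beside 42.6% and 25.7% of all genes. The counts were 4 and 10 with upper-quartile scaling and 2 and 7 with neighbour centring. CDKN1A, the p21 inhibitor of cell cycle kinases, had 8.78, 7.38, 6.98 and 7.09 FPKM in the KO libraries, against 90.5, 95.6, 101 and 99.7 FPKM in the WT libraries. Every KO library lay far below the WT range (log2 fold change -3.52 ± 0.077, limma adjusted p = 3.25e-09). PHLDA3, an inhibitor of AKT, averaged 1.52 ± 0.392 FPKM in KO and 17.7 ± 0.461 FPKM in WT (log2 fold change -2.90 ± 0.12, limma adjusted p = 9.66e-08). GADD45A, a stress sensor, averaged 27.7 ± 2.2 FPKM in KO and 58.8 ± 2.34 FPKM in WT (log2 fold change -1.06 ± 0.065, limma adjusted p = 1.03e-06). In CT26, 13 of 20 were higher and 1 lower, beside 22.3% and 33.5% of all genes, and 15 and 1 with upper-quartile scaling. Cdkn1a had 155, 157, 157 and 158 FPKM in the KO libraries, against 72.5, 65.4, 70.04 and 71.1 FPKM in the WT libraries, without overlap (log2 fold change 1.16 ± 0.035, limma adjusted p = 1.80e-07). Ccng1, a p53-induced cyclin, averaged 75.8 ± 1.46 FPKM in KO and 30.5 ± 2.08 FPKM in WT (log2 fold change 1.29 ± 0.048, limma adjusted p = 4.41e-07). Btg2, an inhibitor of proliferation, averaged 14.1 ± 0.618 FPKM in KO and 2.61 ± 0.245 FPKM in WT (log2 fold change 2.07 ± 0.064, limma adjusted p = 1.84e-07). Mdm2, the ubiquitin ligase of p53, rose in both lines, by a log2 fold change of 0.78 ± 0.15 (limma adjusted p = 0.00144) in MDA-MB-231 and by a log2 fold change of 0.67 ± 0.054 (limma adjusted p = 1.92e-05) in CT26, though neighbour centring ended the call of MDM2, at a log2 fold change of 0.20 (limma adjusted p = 0.271).

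Cell cycle genes differed beside the repair genes. Of all genes tested, 42.6% were called higher and 25.7% lower in MDA-MB-231 KO, and 22.3% and 33.5% in CT26 KO. Of 19 S phase genes, 16 were higher and 1 lower in MDA-MB-231 KO, and their summed level was 2682 to 2802 FPKM in KO, against 1859 to 1948 FPKM in WT. Of 18 genes of G2 and mitosis, 13 were higher and 2 lower there, with a summed level of 2783 to 3001 FPKM in KO, against 2192 to 2457 FPKM in WT. In CT26, 5 of 17 S phase genes tested were higher and 8 lower, with a sum of 1478 to 1566 FPKM in KO, against 1549.8 to 1659 FPKM in WT. In that line 3 of 18 genes of G2 and mitosis were higher and 4 lower. Upper-quartile scaling gave 13 higher and 2 lower S phase genes and 8 higher and 4 lower genes of G2 and mitosis in MDA-MB-231, and neighbour centring 15 and 1, and 6 and 4. In CT26 neighbour centring gave 2 higher and 7 lower S phase genes. The part of the cell cycle in the repair gene changes was not tested.

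**Figure D5:**
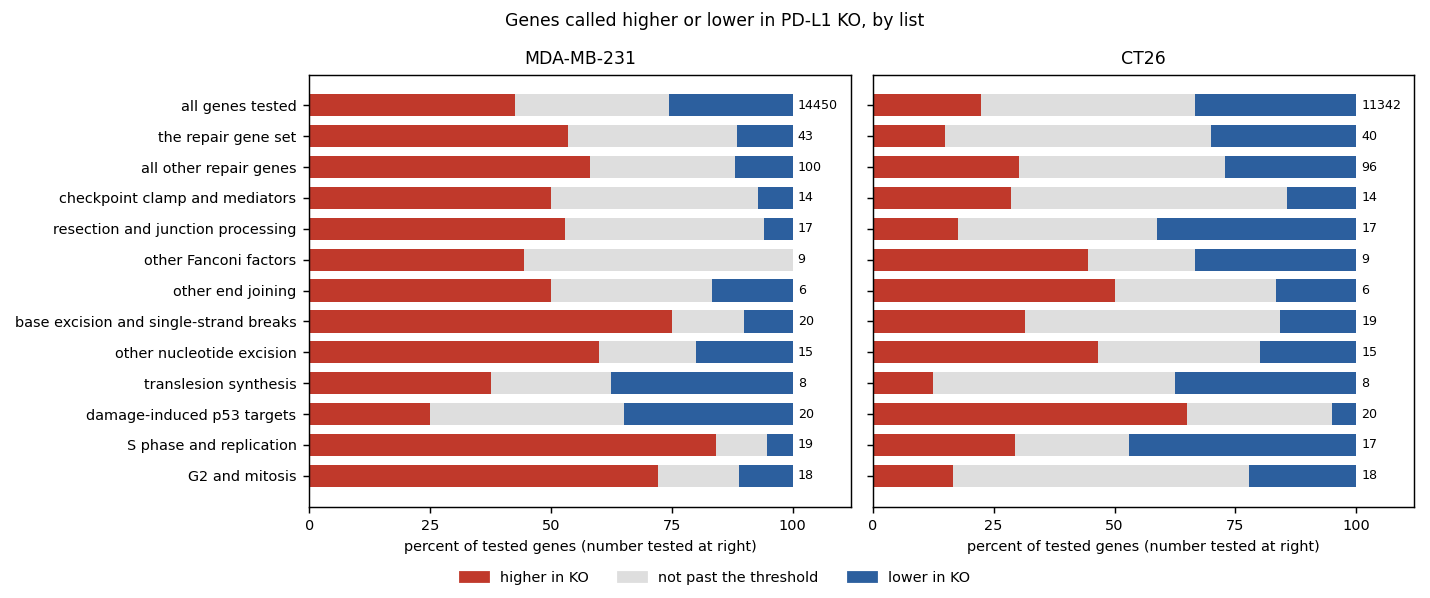
Percent of tested genes called higher (red), lower (blue) or not past the threshold (grey) in KO against WT, for all genes, the repair gene set, other repair lists, damage-induced p53 targets and cell cycle lists, in MDA-MB-231 (left) and CT26 (right), with the number tested at the right of each bar. Red takes the greater part of the bar for, among others, the repair gene set and base excision in MDA-MB-231, and for the p53 targets in CT26.

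The authors' own test, for which the submitters' processing notes name Cuffdiff, covered the same comparisons. In the authors' deposited table for MDA-MB-231, 23 of the 28 genes called here had a q-value under 0.05, the exceptions being CHEK1, TP53BP1, MDC1, MSH6 and XPA, and none of the 15 others did. In the authors' deposited table for CT26, 13 of the 18 called here did, the exceptions being Chek1, Fancg, Rnf8, Xrcc4 and Pms2, and so did Prkdc, at a q-value of 0.00132, which was not called here.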

How the data were processed

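Total RNA from 16 libraries, 4 per group, was sequenced. The submitters' processing notes name bcl2fastq 2.18, STAR 2.5.4a, Cufflinks 2.2.1 and Cuffdiff, and the builds hg38 and mm10. No source used here states the annotation or the use of strand. The deposited tables, 1 per line, hold the authors' FPKM per gene and library, normalized within each table, and the deposited p-values and q-values of the authors' own comparison. Depth was estimated from the spacing of low FPKM values; the read counts themselves are not used here.

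The 43 genes and all lists were chosen with earlier results of these data known. A pseudocount of 1 was added, genes with at least 1 FPKM in at least 4 of the 8 libraries of a line were kept, and log2 values were fitted with limma 3.58.1 (trended empirical Bayes, R 4.3.3), adjusting p by Benjamini and Hochberg over every gene tested and calling those under 0.05. The lines were compared by a contrast of their log2 fold changes in 1 fit over 8674 genes paired by symbol. Ratios were tested by two-sided exact permutation (scipy 1.17.1), which covers 70 assignments. The fits were tested on simulated data. Values in each library are given for up to 3 genes per role group and line with the smallest adjusted p and for genes past the threshold in opposite directions in the lines. BARD1, FANCL and PRKDC were added after their values were seen. Up to 3 genes of each other list are named by adjusted p. Alternatives were pseudocounts of 0.1 and 5, no filter or a minimum of 5 FPKM, upper-quartile scaling, quantile normalization, a replicate block, centring on the 20 Mb window, and leaving out each library. Neighbour centring, which subtracts the window's median deviation in each library, was chosen after seeing the data. Promoter sequences are from RefSeq (GRCh38.p14), and human coordinates from GENCODE 29 (hg38). Some items are not reported here.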

Additional observations from a re-analysis of the deposited data

Results flagged for a closer look

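In 11 of the 174 groups of 4 libraries checked, 1 library stood apart from the other 3 by Dixon's test at the 95% level, which chance alone gives in about 1 of 20 groups. In MDA-MB-231 these were CHEK2 in WT replicate 4 (12.7 FPKM, against 9.42 to 9.97 FPKM in the other 3), NBN in KO replicate 4 (18.6 FPKM, against 23.3 to 23.7 FPKM in the other 3), MRE11 in WT replicate 1 (11.5 FPKM, against 13.8 to 14.1 FPKM in the other 3), FANCI in WT replicate 2 (54.8 FPKM, against 44.9 to 46.3 FPKM in the other 3), FANCL in WT replicate 2 (15.3 FPKM, against 12.9 to 13.2 FPKM in the other 3) and RNF8 in WT replicate 1 (30.4 FPKM, against 39.6 to 40.6 FPKM in the other 3). In CT26 they were Chek1 in WT replicate 1 (27.1 FPKM, against 30.3 to 30.7 FPKM in the other 3), Palb2 in WT replicate 4 (4.40 FPKM, against 3.25 to 3.43 FPKM in the other 3), Fancc in WT replicate 2 (6.73 FPKM, against 8.88 to 9.02 FPKM in the other 3), Fancf in WT replicate 1 (9.98 FPKM, against 7.15 to 7.56 FPKM in the other 3) and Fancg in KO replicate 2 (5.16 FPKM, against 6.90 to 7.0 FPKM in the other 3).

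The change with knockout differed between MDA-MB-231 and CT26 for 28 of 40 genes by the contrast of their log2 fold changes in limma, at an adjusted p under 0.05, beside 72.2% of all paired genes. The difference, MDA-MB-231 minus CT26 on the log2 scale, was RAD52 1.71, XRCC5 1.67, ERCC2 1.65, ATM 1.44, BARD1 1.14, XRCC6 1.09, XPC 1.06, PMS2 0.84, NBN 0.82, FANCI 0.80, CHEK1 0.78, LIG4 0.72, ERCC1 0.66, FANCC 0.65, FANCL 0.61, MSH6 0.58, ATR 0.54, CHEK2 0.54, FANCE 0.51, FANCD2 0.49, RNF168 0.49, FANCB 0.44, BRCA1 0.42 and PALB2 0.41. It was below 0 for MDC1 -0.93, DDB2 -0.83, XRCC2 -0.74 and XRCC4 -0.33.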

How the results depend on the processing

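Up to 17 alternatives were run in each line and 21 for the difference between lines. With a minimum of 5 FPKM, FANCF was not tested in MDA-MB-231. In CT26 this held for Bard1, Palb2, Xrcc2, Lig4, Prkdc, Xpc, Ddb2 and Cd274. The counts of genes higher and lower stayed within 1.5 times those of the report under every alternative except those given in the next paragraph. Leaving out 1 library, repair gene counts ran from 23 to 24 higher and 5 lower in MDA-MB-231 and from 5 to 6 higher and 9 to 13 lower in CT26. For the difference between lines they ran from 21 to 24 above 0 and 3 to 5 below. The log2 fold change of CD274 ranged from -0.28 to -0.099 and Cd274 from -0.70 to -0.63.

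Window centring left 2 repair genes lower in MDA-MB-231. In CT26, upper-quartile scaling left 7 lower, window centring gave 10 higher and 3 lower among repair genes and 2134 lower among all genes, and neighbour centring gave 12 higher and 4 lower. Of the differences between lines, upper-quartile scaling left 13 above 0 and 10 below among repair genes and 2937 below among all genes, and quantile normalization 7 below among repair genes. CD274 passed the threshold at log2 fold changes of -0.40 with upper-quartile scaling, -0.32 with quantile normalization, -0.39 with window centring and -0.41 with neighbour centring.

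With upper-quartile scaling, the sign turned in MDA-MB-231 for BRCA1 -0.12, BRCA2 -0.058, RAD54L -0.063, FANCB -0.054, XRCC4 -0.11 and XRCC1 -0.072, and in CT26 for Trp53bp1 0.038, Xpc 0.028 and Xrcc1 0.034. With quantile normalization, the sign turned in MDA-MB-231 for BRCA1 -0.048, RAD54L -0.034, XRCC4 -0.014 and XRCC1 -0.0085, and in CT26 for Xrcc2 -0.0068, Trp53bp1 0.026 and Xrcc1 0.034. With window centring, the sign turned in MDA-MB-231 for ATR -0.50, RAD50 0.041, BRCA2 -0.046, FANCA -0.0085, MDC1 0.31, RNF8 0.26, XRCC4 -0.086 and MSH6 -0.16, and in CT26 for Chek1 0.010, Nbn 0.17, Rad50 0.068, Bard1 0.11, Xrcc2 -0.33, Fancm -0.17, Xrcc5 0.11, Lig4 -0.23, Msh6 0.027 and Xpc 0.099. With neighbour centring, the sign turned in MDA-MB-231 for ATR -0.52, BRCA1 -0.072, BRCA2 -0.16, FANCC 0.063, XRCC4 -0.16 and MSH6 -0.017, and in CT26 for Bard1 0.19, Xrcc2 -0.36, Fancm -0.18, Trp53bp1 0.014, Xrcc5 0.20, Lig4 -0.066, Pms2 0.044 and Xpc 0.084. The difference between lines changed sign with a pseudocount of 5 for FANCG 0.022 and XRCC3 0.16, with upper-quartile scaling for PRKDC -0.029, RAD50 -0.27, RAD54L -0.040, XPA -0.27 and XRCC1 -0.11, and with quantile normalization for RAD50 -0.15, XPA -0.17 and XRCC1 -0.042. The cause was not tested for any of these. Leaving out 1 library, the sign turned for these log2 fold changes, given with their lowest and highest values: in MDA-MB-231 BRCA2 (-0.0065 to 0.27), FANCC (-0.11 to 0.070) and FANCM (-0.25 to 0.060), and in CT26 Fance (-0.036 to 0.054), Rnf168 (-0.010 to 0.044), Xpc (-0.15 to 0.011) and Xrcc2 (-0.034 to 0.050). The differences between lines that turned were BRCA2 (-0.15 to 0.12), RAD50 (-0.025 to 0.092), XPA (-0.16 to 0.18) and XRCC3 (-0.093 to 0.027).

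Replicate numbers are shared by the groups in the labels, which do not say whether libraries of the same number share anything more. The deviations of same-numbered libraries correlated by -0.037 to 0.0044 in MDA-MB-231 and by 0.027 to 0.078 in CT26. In CT26, though not in MDA-MB-231, every KO library correlated best with the WT library of its own number. A shared batch or pairing was not tested, and the main fit left the replicate number out. With a replicate block, 24 repair genes were higher and 5 lower in MDA-MB-231, and 5 and 10 in CT26, with 23 and 4 differing between lines. CHEK2 then passed in MDA-MB-231 (limma adjusted p = 0.0314), and Chek2, Nbn and Fancg lost their calls in CT26 (limma adjusted p = 0.0642, 0.109 and 0.0915). The number of reads behind each FPKM is unknown, so no counting interval is given, and 4 libraries a group limit the precision.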

Other observations

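KRT19, of the 15 genes that check the identity of the lines, and MITF, of the neural and melanocyte markers, differed more than any repair gene did. The genes named here were chosen after their values were seen. Of the 11 identity genes tested in MDA-MB-231, 2 were higher and 7 lower, beside 42.6% and 25.7% of all genes. KRT19, an epithelial keratin, had 7.51, 7.86, 7.72 and 7.88 FPKM in the KO libraries, against 327, 324, 318 and 311 FPKM in the WT libraries (log2 fold change -5.20 ± 0.041, limma adjusted p = 1.83e-11). CD44, a surface glycoprotein typical of this mesenchymal line, averaged 321 ± 12.1 FPKM in KO and 1093 ± 48.3 FPKM in WT (log2 fold change -1.76 ± 0.045, limma adjusted p = 7.47e-09), and MITF, a melanocyte transcription factor, averaged 29.6 ± 2.17 FPKM in KO and 3.67 ± 0.572 FPKM in WT (log2 fold change 2.72 ± 0.11, limma adjusted p = 7.84e-08). VIM, the mesenchymal filament protein, averaged 2545 ± 86.2 FPKM in KO and 1113 ± 12.7 FPKM in WT (log2 fold change 1.19 ± 0.034, limma adjusted p = 1.38e-08).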
